A study of Mus musculus with 2 samples.

Results

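The miR-15/16 and miR-195 family was represented by 5 mouse miRNA genes, Mir15a, Mir15b, Mir16-1, Mir16-2 and Mir195a, of 2201 miRNA gene names in GENCODE release M21 (GRCm38). Small RNAs were counted for these genes when a sequence of at least 16 nt lay exactly, on the sense strand, inside an annotated hairpin of that name. Of the family, 65 distinct sequences were read in either library, and all 5 genes had reads. The WT library and the Hsp90α KO library were each made from 20 whole testes, pooled, of C57BL/6 fetuses at E16.5. Hsp90α KO fetuses lack HSP90α, the inducible cytosolic form of the HSP90 chaperone. With 1 library per genotype there was no replicate check. All intervals below are 95% intervals that cover the sampling of reads only, and reads amplified by PCR without molecular identifiers are not independent molecules.

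A miRNA is cut from a hairpin precursor, first by Drosha in the nucleus and then by Dicer in the cytoplasm, which removes the loop and leaves a duplex of a 5p and a 3p strand. An Argonaute protein keeps one strand, whose bases from the second to the eighth, the seed, select target mRNAs. The miR-15/16 family is known to repress cyclins, cyclin-dependent kinases and the survival factor Bcl2, and is regarded as a brake on entry into S phase. At E16.5 male germ cells, the prospermatogonia, have stopped dividing, whereas many somatic cells of the testis still proliferate.

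The family is defined by its seed, and its members differ in the bases after it. The following mature 5p sequences from RefSeq (GRCm38.p6), with the seed in capitals, show the 4 distinct products of the 5 genes and the 2 relatives outside the family that had reads.
miR-16-5p: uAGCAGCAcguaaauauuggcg
miR-195a-5p: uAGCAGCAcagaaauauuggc
miR-15a-5p: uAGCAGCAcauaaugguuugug
miR-15b-5p: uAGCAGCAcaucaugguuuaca
miR-322-5p: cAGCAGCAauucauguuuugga
miR-497a-5p: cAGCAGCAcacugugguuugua
The 4 products of the family fell into a pair of sequence groups, and the 2 relatives were not compared. miR-16-5p and miR-195a-5p differed at only 2 of 21 compared positions, 10 and 11 from the 5′ end, and shared the stretch AAAUAUUGGC after them. miR-15a-5p and miR-15b-5p differed at 4 of 22 positions, 12, 20, 21 and 22, and shared AUGGUUU. Between the groups, miR-15a-5p and miR-16-5p differed at 6 positions and miR-15b-5p and miR-16-5p at 8.

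The genes lie in 3 clusters of paired hairpins. Mir15b (chr3:69009772-69009835, plus strand) and Mir16-2 (chr3:69009902-69009996) are separated by 66 nt in an intron of Smc4, a condensin subunit gene. Mir15a (chr14:61632027-61632110, minus strand) lies 54 nt from Mir16-1 (chr14:61631880-61631972), both within the noncoding RNA gene Dleu2. Mir15a overlaps no annotated Dleu2 exon, and 13 bases of the Mir16-1 hairpin lie under one. Mir195a (chr11:70235042-70235135, plus strand) overlaps no other annotated gene, and the hairpin of its relative Mir497 lies 241 nt before it. Mir16-1 and Mir16-2 have the same mature 5p sequence, so that their 5p reads cannot be assigned to one locus. These 2 genes are therefore treated together as Mir16 below unless stated, with each sequence counted once.

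The libraries held 6409305 reads for WT and 5589326 reads for KO, of which 2523084 (39.4%) and 2561491 (45.8%) lay in miRNA hairpins. Levels are given as RPM, reads per 1000000 of these hairpin reads, in which 3 reads, taken as the limit of detection, are 1.19 in WT and 1.17 in KO. The germ cell markers of the miR-290 and miR-302 clusters had 2027 reads in WT and 2665 in KO, a KO/WT ratio of 1.29 (1.22 to 1.37), with reads for 10 of 13 markers. Gonadal support cell markers (Mir202 and Mir140) had a ratio of 1.06, 5 mesenchymal markers 1.02 together (from 0.811 for Mir143 to 1.32 for Mir199a-1) and the endothelial marker Mir126a 1.003. The 6 blood markers together had a ratio of 0.863 (0.837 to 0.890), from 9027 reads in WT and 7910 in KO. The part of these shifts in the results below was not tested. In whole testes, fewer cells of a type and less RNA per cell cannot be told apart. Sense reads inside Hsp90aa1 transcripts, the gene that was knocked out, numbered 22 in WT and 37 in KO, but short fragments that may lie outside the altered part of the gene do not check the genotype.

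The family as a whole was slightly lower in the KO library. It had 11561 reads in WT and 11152 in KO, or 4582 and 4354 RPM. The KO/WT ratio was 0.950 (0.926 to 0.975), a log2 ratio of -0.07. This direction depended on the normalizing total. When reads were instead expressed per read of the whole library, where the hairpin share itself was larger in KO, the ratio was 1.11 (1.08 to 1.13).

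The level order was the same in both libraries: Mir16, then Mir15b, Mir15a and Mir195a. Mir16 supplied 92.6% of the family's reads in WT and 92.7% in KO. It had 10708 reads (4244 RPM) in WT and 10332 (4034 RPM) in KO, a ratio of 0.950 (0.925 to 0.977) that turned to 1.11 (1.08 to 1.14) when normalized to all reads. Mir16 was the only product of the family whose interval excluded 1 when normalized to hairpin reads. Without the most read sequence, the 22-nt miR-16-5p, the ratio was 0.966 (0.892 to 1.04) for Mir16 and 0.958 (0.901 to 1.02) for the family, and both intervals held 1.

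Mir15b, the partner of Mir16-2 in the Smc4 intron, had 475 reads in each library, or 188 and 185 RPM. Its KO/WT ratio was 0.985 (0.866 to 1.12). Mir15a, the partner of Mir16-1 in Dleu2, had 282 reads (112 RPM) in WT and 258 (101 RPM) in KO, with a ratio of 0.901 (0.758 to 1.07). Mir195a had 96 reads (38.1 RPM) and 87 (34.0 RPM), with a ratio of 0.893 (0.660 to 1.21). The intervals of these 3 ratios all held 1 when normalized to hairpin reads, but that of Mir15b lay above 1 when normalized to all reads (1.15, 1.008 to 1.305).

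Each step in the order was larger than the sampling of reads. Mir16 exceeded Mir15b 22.5-fold (20.6 to 24.8) in WT and 21.7-fold (19.8 to 23.9) in KO. Mir15b exceeded Mir15a 1.68-fold (1.45 to 1.96) in WT and 1.84-fold (1.58 to 2.15) in KO, and Mir15a exceeded Mir195a 2.94-fold and 2.97-fold. These values use all exact reads of a hairpin, with both strands and the loop. Over 5p reads with untemplated 3′ tails included, the step from Mir15b to Mir15a was smaller, 390 against 306 reads in WT and 392 against 291 in KO. Mir16 and Mir195a, whose 5p products are the most alike in sequence, were the farthest apart in level, 112-fold in WT and 119-fold in KO. The products are within 1 nt of each other in annotated length, so no length scaling was applied. How efficiently adaptors join to each sequence was not measured, and it enters every comparison between miRNAs.

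**Figure D1:**
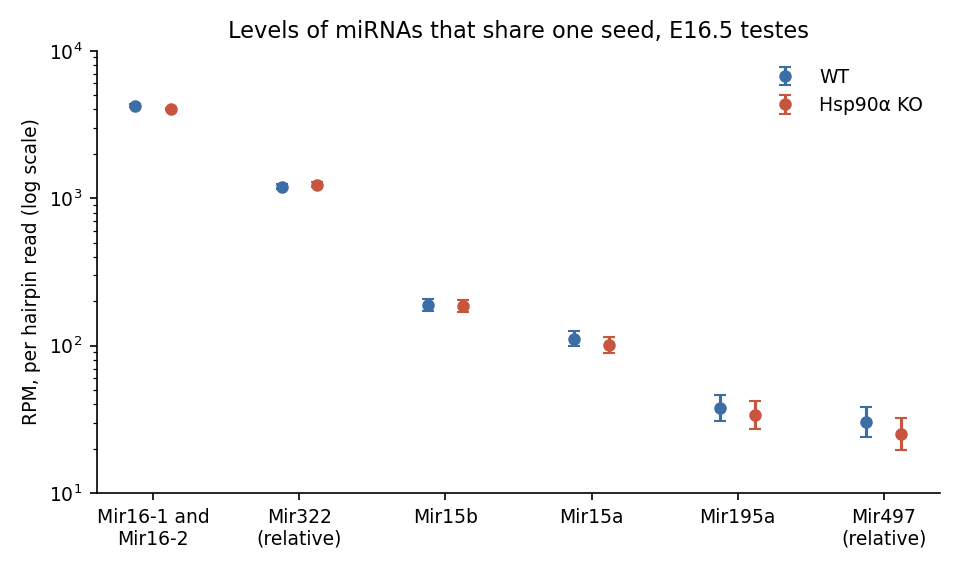
RPM, reads per 1000000 hairpin reads (log axis), of each miRNA with the shared seed in the WT and Hsp90α KO libraries, 1 library each; bars are exact 95% Poisson intervals for read sampling. Mir16 lies at 4244 and 4034 and Mir195a at 38.1 and 34.0, and the WT and KO points of each miRNA lie close together.

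Of 458 hairpins with at least 100 reads when both libraries were summed, 211 (46.1%) were at least 1.2-fold lower in KO and 34 (7.42%) at least 1.2-fold higher. By the other rule, 240 (52.4%) had an interval wholly below 1 and 43 (9.39%) wholly above. Of the 5 members none was 1.2-fold lower or higher, and those with an interval below 1 were 2, Mir16-1 and Mir16-2, which share their reads. None lay above. However, 228 of the 458 hairpins had no mature miRNA in RefSeq under their gene symbol. Many of these are predicted genes whose read counts repeat those of other predicted genes within each library, so they are not independent hairpins. The median ratio of the 228 was 0.390. The 228 also include known miRNAs, such as Mir143 (0.811) and Mir30d (0.976).

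Among the 230 hairpins with a RefSeq mature miRNA matched by symbol, 25 (10.9%) were at least 1.2-fold lower and 21 (9.13%) at least 1.2-fold higher. Intervals lay wholly below 1 for 50 of them (21.7%) and wholly above for 42 (18.3%). Their median ratio was 0.979, and 5% of them had ratios under 0.759. By level, Mir16-1 and Mir16-2 ranked 26 and 27 of these 230 in WT and 27 and 28 in KO. Mir15b ranked 112 and 114, Mir15a 139 and 148, and Mir195a 200 and 202. Of all 458 hairpins, Mir16-1 ranked 29 in WT and 30 in KO, and Mir16-2 ranked 30 and 31. The hairpins with at least 1000 reads whose ratios were nearest to that of the family over the 2 libraries were Mir341 (0.950), Mir351 (0.951) and Mir210 (0.951).

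**Figure D2:**
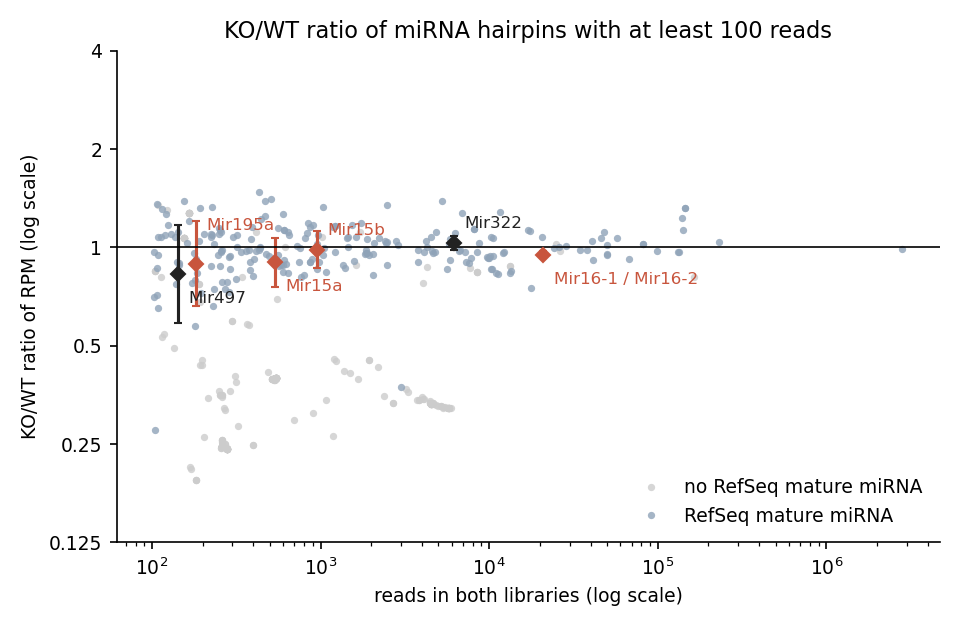
KO/WT ratio of RPM (log axis) against the reads in both libraries (log axis) for hairpins with at least 100 reads; red diamonds are the members and black diamonds the relatives Mir322 and Mir497, with 95% intervals for read sampling. The members lie between 0.893 and 0.985, within the cloud of hairpins with a RefSeq mature miRNA matched by symbol. Many hairpins without such a match lie near 0.390.

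RefSeq held 6 further hairpins with the same seed, of which only Mir322 and Mir497 had reads. Mir322, the mouse counterpart of human miR-424 on the X chromosome, had 3016 reads (1195 RPM) in WT and 3165 (1236 RPM) in KO, with a ratio of 1.03 (0.983 to 1.09). It thus stood between Mir16 and Mir15b, 3.55-fold below Mir16 in WT and 3.26-fold in KO. Mir497, the neighbour of Mir195a, had 77 reads (30.5 RPM) and 65 (25.4 RPM). Its ratio was 0.832 (0.588 to 1.17), at least 1.2-fold lower but with an interval that held 1. Mir195a exceeded Mir497 1.25-fold (0.914 to 1.70) in WT and 1.34-fold (0.959 to 1.88) in KO, so these clustered neighbours did not differ beyond read sampling in either library. Mir195b, Mir6342, Mir6353 and Mir6419 had no reads in either library.

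Reads were also counted by the seed alone, whichever gene they came from. Reads of 20 to 24 nt with AGCAGCA at bases 2 to 8, exact match to a hairpin or not, numbered 16581 in WT and 16424 in KO, or 6572 and 6412 RPM. The ratio was 0.976 (0.955 to 0.997). Exact Mir16 reads made up 63.8% of this pool in WT and 62.0% in KO, and exact Mir322 reads 11.6% and 12.5%. Mir15b gave 2.34% and 2.36%, Mir15a 1.64% and 1.52%, Mir195a 0.495% and 0.469%, and Mir497 0.452% and 0.384%. A further 19.0% and 20.3% were reads of these hairpins with an untemplated 3′ tail, which were mostly from Mir322 and are described below. Reads placed on no hairpin numbered 118 and 76.

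The 5p strand was the main product of every member. It made up 98.3% (98.1% to 98.6%) of family reads in WT and 98.1% (97.8% to 98.3%) in KO. Mir15b had the largest 3p share of the members in both libraries, with 79 3p reads against 389 5p reads in WT and 82 against 389 in KO. The 3p share of Mir15b was 16.6% (13.5% to 20.2%) in WT and 17.3% (14.1% to 20.9%) in KO. That of its sequence relative Mir15a was 2.84% (8 reads) and 1.94% (5 reads). Mir195a had 11 and 6 3p reads, 11.5% (6.52% to 19.4%) and 6.90% (3.20% to 14.2%) of its reads. These intervals overlapped those of Mir15b. All these shares count exact reads only. The annotated Mir15b hairpin has 64 nt and its 3p strand ends at position 63. Longer 3p reads of Mir15b thus fail the exact match, and its 3p share leaves them out.

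Mir16-1 gave only 10 3p reads in WT and 17 in KO, and Mir16-2 only 5 and 12. These 3p strands are among the few sequences that tell the Mir16 loci apart. Sequences that lie in Mir16-1 alone had 97 reads (38.4 RPM) in WT and 112 (43.7 RPM) in KO, with a ratio of 1.14 (0.859 to 1.51). Sequences that lie in Mir16-2 alone had 20 reads in each library, with a ratio of 0.985 (0.503 to 1.93). Most of the Mir16-1 reads were from its loop, described below. The 5p reads that ran far enough beyond the shared part to be placed were 15 for each locus in WT, and 10 for Mir16-1 and 8 for Mir16-2 in KO.

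The loop of Mir16-1 was itself sequenced as a small RNA of 20 nt. The hairpins of Mir16-1, Mir16-2 and Mir15b from GENCODE M21 are shown on the DNA alphabet, 5′ to 3′, to locate it; capitals mark the bases between the annotated 5p and 3p strands.
Mir16-1: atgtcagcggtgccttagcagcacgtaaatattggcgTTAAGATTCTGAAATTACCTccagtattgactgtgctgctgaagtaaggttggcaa
Mir16-2: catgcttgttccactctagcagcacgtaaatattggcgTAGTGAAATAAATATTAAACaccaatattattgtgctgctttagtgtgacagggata
Mir15b: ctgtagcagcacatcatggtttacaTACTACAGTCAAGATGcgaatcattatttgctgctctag
Loop reads of Mir16-1 numbered 70 in WT and 85 in KO, a ratio of 1.196 (0.861 to 1.66). All but 1 in each library, 69 and 84, were the exact 20-nt run in capitals, from position 38 to 57 of the hairpin. The loop therefore had more reads than the 3p strand of its own hairpin in both libraries. Single WT reads of 42 nt and 43 nt joined the loop to the 5p strand and to the 3p strand, and no such read was present in KO.

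Mir16-2, whose gap between the strands is also 20 nt, had no loop read in either library, where 3 reads would be 1.19 and 1.17 RPM. Mir15b had 7 and 4 reads of its 16-nt loop, the exact run between the strands. Pieces of this loop shorter than 16 nt were not counted, so shorter forms could not be seen. Mir195a had none for a gap of 17 nt, and Mir15a none for a gap of 15 nt, across which a counted sequence has to overlap a strand by 1 nt. Of 520 hairpins with both strands in RefSeq and a gap of at least 14 nt, 43 had any loop read and 11 had at least 10 over both libraries. By count, Mir16-1 had the most of any, followed by Mir134 (45 and 46) and Mir214 (32 and 28), and was the only one with at least 100. As a share of all reads of the hairpin, its loop was smaller than theirs. For Mir16-1 it was 70 of 10688 reads in WT and 85 of 10312 in KO. For Mir134 it was 45 of 459 and 46 of 428, and for Mir214 32 of 2366 and 28 of 2313.

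**Figure D3:**
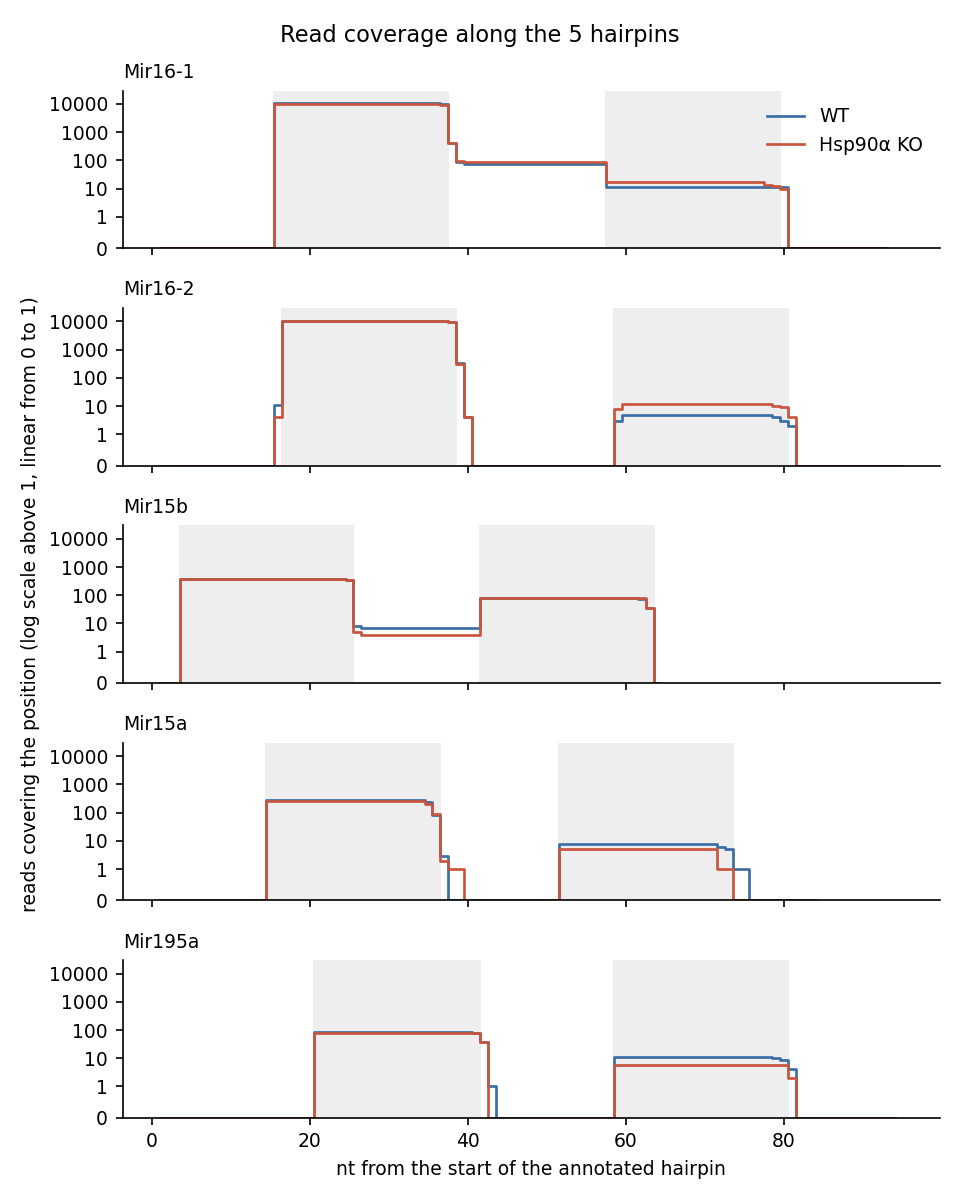
Reads covering each position of the 5 annotated hairpins in the WT and Hsp90α KO libraries (logarithmic above 1 read, linear from 0 to 1); grey marks the RefSeq mature strands. The gap between the strands is filled by 70 and 85 loop reads in Mir16-1 and by 7 and 4 in Mir15b, and is empty in the middle for Mir16-2, Mir15a and Mir195a.

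The 5′ end, which sets the seed, was nearly fixed. Mir16 5p reads began at the annotated base in 10605 of 10621 cases in WT (99.8%) and 10204 of 10218 in KO (99.9%). A start 1 nt earlier had 11 reads in WT and 4 in KO. Over both libraries, the share of main-strand reads with the most frequent start was 99.9% at the median of the 5 members and 98.9% at the median of the 230 RefSeq hairpins, whose quartiles were 93.0% and 99.7%. No read matched the antisense strand of any member.

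The 3′ end varied, and in different ways for each miRNA. The 22-nt form annotated for miR-16-5p was 88.8% of its exact 5p reads in WT (9436 reads) and 88.9% in KO (9085), and the 21-nt form had 799 and 766 reads. miR-15b-5p was likewise mostly its annotated 22 nt, 85.9% in WT and 85.3% in KO. miR-15a-5p was shorter than its annotation. Its most read form was the 21-nt one that lacks the last base, with 147 reads in WT and 111 in KO (53.6% and 43.9%), whereas the annotated 22-nt form had 78 and 88 (28.5% and 34.8%) and the 20-nt form 44 and 49. The intervals of the 21-nt share, 47.7% to 59.5% in WT and 37.9% to 50.0% in KO, overlapped. miR-195a-5p split between its annotated 21 nt (43 and 42 reads) and 22 nt (36 and 35 reads), whose last base matches the hairpin.

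A minor form of miR-16-5p ended 17 nt from the annotated start, with 23 reads in WT and 22 in KO, while no exact 5p read of 18 nt was present in either library. Mir195a had 3 and 2 5p reads of 17 nt and none of 18 nt. Over all hairpins, reads of 17 nt were fewer than those of 18 nt, 5644 against 9185 in WT and 5508 against 9258 in KO.

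Untemplated bases, added after the part that matches the hairpin, were counted apart from the exact reads, for tails of 1 to 3 nt after at least 18 matching bases. Mir16 was rarely tailed, with 142 of 10763 5p reads in WT (1.32%, 1.12% to 1.55%) and 121 of 10339 in KO (1.17%, 0.980% to 1.40%). Its tails were mostly a single A, 102 and 82 reads. Mir15a was tailed in 32 of 306 reads in WT (10.5%, 7.505% to 14.4%) and 38 of 291 in KO (13.1%, 9.66% to 17.4%), with a single U in 16 and 24 reads and a single A in 14 and 14. Mir15b had 1 and 3 tailed 5p reads and Mir195a 1 and 6. With tails on either strand included, Mir15b rose from 475 exact reads in each library to 524 in WT and 521 in KO. Most of these further Mir15b reads were therefore not 5p reads. The annotated Mir15b hairpin has 64 nt and its 3p strand ends at position 63. A 3p read that runs past the annotated hairpin is also counted as tailed, even where its last bases match the genome. Such reads and reads with added bases were not told apart. At the median of the 230 RefSeq hairpins, 13.2% of reads in WT and 13.0% in KO were tailed, with lower quartiles of 5.72% and 5.58%. By their 5p reads, Mir16 and Mir15b lay below the lower quartile in both libraries. Mir195a, with few tailed reads, lay below it in WT (1.16%) but not in KO (6.90%). Mir15a lay between the lower quartile and the median in WT and about at the median in KO.

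The relative Mir322 showed the opposite extreme. Its 5p reads were tailed in 2988 of 5001 cases in WT (59.7%, 58.4% to 61.1%) and 3183 of 5353 in KO (59.5%, 58.1% to 60.8%). Of these 2793 and 2969 carried a single U, against 32 and 54 with a single A. In Mir15a the single U and single A were close in WT, 16 against 14 reads, and 24 against 14 in KO. Counts by exact match leave such reads out. Mir16 exceeded Mir322 5.28-fold in WT and 4.71-fold in KO over exact 5p reads, and 2.15-fold and 1.93-fold over exact and tailed 5p reads together. Single-base differences inside miR-16-5p were fewer than those at its end. Among reads that differed from the 22-nt miR-16-5p by 1 base, the median over positions 1 to 21 was 2 reads per position in each library. The highest of these positions had 9 in WT and 7 in KO, against 40 and 32 at position 22. Of the reads at position 22, 38 and 31 were the 21-nt form with an added A, already counted among the tails.

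**Figure D4:**
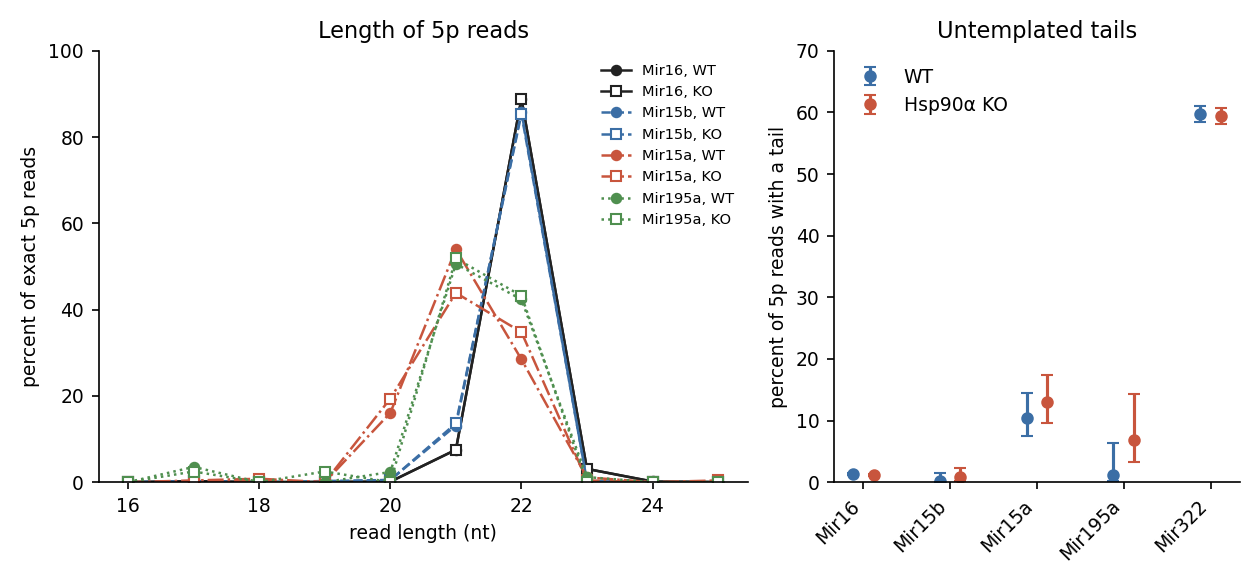
Left, percent of exact 5p reads by read length for each miRNA of the family in the WT (filled) and KO (open) libraries. Right, percent of 5p reads with an untemplated 3′ tail of 1 to 3 nt, with 95% Wilson intervals for read sampling, for the family and Mir322. Mir16 and Mir15b peak at 22 nt and Mir15a and Mir195a at 21 nt. Tails range from 0.256% of Mir15b 5p reads in WT to 59.7% of Mir322 5p reads in WT.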

How the data were processed

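Total RNA of 20 whole testes per genotype, extracted with Isogen, was made into 1 TruSeq Small RNA library for WT and 1 for Hsp90α KO and read by 50-bp single-end MiSeq sequencing. The authors clipped the adaptor, kept reads of more than 10 bp and deposited raw read counts per distinct sequence, without normalization or pooling of the 2 genotypes; the clipping tool is not given in the sources used here. Their notes name genome build mm9, and no coordinate of that build was used. Here sequences of 11 to 48 nt were read as deposited, and those of at least 16 nt were matched exactly to GENCODE M21 miRNA transcripts; nothing with a mismatch was counted except in the tail, seed and substitution counts. A sequence that lay in several hairpins counted once in totals and in full for each hairpin. Mature sequences came from RefSeq (GRCm38.p6), with all 5 members matched by symbol.

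KO/WT ratios of RPM have 95% Clopper-Pearson intervals of the conditional binomial share, shares have Wilson intervals and levels exact Poisson intervals. No test between genotypes was possible with 1 library each. On counts drawn from a Poisson model for 458 hairpins the interval held the true ratio in 95.5% of intervals, over 20 draws of each. The interval assumes such sampling, so this checks the calculation only. Variation from PCR or between libraries was not simulated. The members, their relatives by seed and the 3 hairpins nearest in ratio were the genes to be named, and the marker lists were set with them; markers listed under another name (Mir292, Mir142 and Mir3107) were matched through RefSeq synonyms. Members and lists were chosen with earlier results of these data known. The normalizing total, read length, minimum count, tails, distinct sequences, the most read sequence and shared sequences were varied. Mir134 and Mir214 (loops) were named after their values were seen. Python 3.11.15, numpy 2.4.6, scipy 1.17.1 and matplotlib 3.10.9 were used.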

Additional observations from a re-analysis of the deposited data

Results flagged for a closer look

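Reads with an untemplated 3′ tail lie outside the exact-match counts on which the comparisons rest, and for some members they exceeded the limit that a count of 0 allows, 3 reads. Mir16 had 142 such 5p reads in WT and 121 in KO. Mir15a had 32 in WT and 38 in KO. Mir195a had 6 in KO against 1 in WT, a ratio of 5.91 with an interval from 0.717 to 272. With 1 library per genotype, no group was searched for a library that stands apart.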

How the results depend on the processing

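Of 65 alternative values, 52 kept their direction or moved by less than the main interval, 7 moved and 6 reversed. The family ratio turned to 1.11 when normalized to all reads and 1.10 when normalized to the median ratio of 458 hairpins. It was 1.05 when each distinct sequence counted once, with a wide interval that held 1 (0.697 to 1.58). For Mir16 these were 1.11, 1.10 and 1.09 (0.589 to 1.995 for the last). For Mir15b they were 1.15 (1.008 to 1.305), 1.14 (1.004 to 1.301) and 1.18 (0.441 to 3.16), of which the intervals of the first and second no longer held 1. The KO/WT ratio of the total behind each is 1.02 for hairpin reads, 0.872 for all reads and 0.875 for the hairpin median. The 228 hairpins without a RefSeq mature miRNA matched by symbol pulled this median down. Over the other 230 it is 0.994, a scaling added after seeing the data. The ratio of sequences in Mir16-1 alone moved to 1.52 by distinct sequences, from 7 in WT and 9 in KO. The 5p share by distinct sequences was 59.3% in WT and 56.2% in KO. Without its most read sequence, an alternative added after seeing the data, Mir15a had a ratio of 1.07 (0.843 to 1.37), and the intervals of the family and of Mir16 came to hold 1, at 0.958 (0.901 to 1.02) and 0.966 (0.892 to 1.04). Over all alternatives the family ratio ranged from 0.936 to 1.11 and was below 1 in 8 of 11, and that of Mir195a ranged from 0.787 to 1.04.

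No paired analysis was possible because each genotype has 1 library, and leaving out a library leaves no comparison. Depth limited Mir195a, Mir497 and the Mir16-2 sequences most, with 96, 77 and 20 reads in WT. The cause of the other reversals and shifts was not tested.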

Other observations

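Of the family's distinct sequences, 37 of 65 were read in both libraries, beside 4686 of 9259 over all miRNA hairpins. The 17 sequences seen in WT alone had 21 reads in all, with at most 3 for any one, and the 11 seen in KO alone had 18 reads, with at most 5. The KO sequence with 5 reads was the 19-nt end of miR-16-5p that starts 3 nt inside the annotated 5′ end.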
